A study of Mus musculus with 18 samples.

Results

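The genes described here are the 4 receptors of the epidermal growth factor (EGF) receptor family, Egfr, Erbb2, Erbb3 and Erbb4, and 6 ligands that bind them, Ereg, Areg, Hbegf, Tgfa, Btc and Nrg1. They were chosen by symbol, and each gene was read from its brightest probe set, by the mean of all 18 arrays, among those annotated to that symbol alone. A probe set is a group of short oligonucleotides on the array that are read together as 1 value. Of the 10 genes, 9 had such a probe set, out of 18193 genes measured in the same way. Areg, which encodes amphiregulin, was not analysed here.

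The receptors are tyrosine kinases of the cell membrane that form pairs when a ligand binds, after which their phosphorylated tails recruit adaptors that switch on the RAS-MAPK and PI3K-AKT cascades. ERBB2 has no known ligand of its own and ERBB3 has little kinase activity, so both act with a partner receptor. The ligands are made as membrane proteins and are cut free by ADAM proteases. In the lung the family is known for the repair of injured epithelium, and in human lung adenocarcinoma activating EGFR mutations are a known driver.

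The samples were cobalt tumours, which are lung tumours of mice that inhaled cobalt metal particles, spontaneous tumours, which are lung tumours not attributed to cobalt in the labels, and control lung of vehicle control mice, with 6 arrays each. The mice, of the hybrid B6C3F1/N strain, were 5 to 6 weeks old when exposure began. The aerosol concentrations were 5, 2.5 and 1.25 mg/m3 of cobalt metal, beside 0 for the vehicle controls, given for 6 hours a day on 5 days a week over at most 105 weeks. The sources used here give neither the dose, sex nor age at collection for single arrays. They also do not say whether each array stands for a mouse of its own, so p-values here reflect only how the arrays scatter, which may in part be technical.

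The median log2 level of an array was 6.32 to 6.45, and precision is limited by how many arrays there were. The epithelial marker list was higher in both kinds of tumour for 4 of its 5 genes, among them Epcam, an adhesion molecule of epithelial cells (log2 difference 2.34 in cobalt tumours and 2.22 in spontaneous tumours), and all 7 endothelial markers were lower in both. All 5 heart muscle markers were lower in both as well, with median log2 differences of -5.01 in cobalt tumours and -4.86 in spontaneous tumours from control lung. In bulk samples, fewer cells of a type and less RNA per cell cannot be told apart. The mean r of cobalt tumour 6 over all probe sets was 0.954 with the other cobalt tumours and 0.971 with control lung. Spontaneous tumours 2 and 6 had alveolar type 2 markers 0.4 and 0.45 log2 units below the control mean, whereas the other 10 tumours were 0.55 to 0.89 above it. Of the 6 alveolar type 2 markers measured, 3 were higher in cobalt tumours and 2 in spontaneous tumours, and 5 of 7 alveolar type 1 markers were lower in both. Of 6 fibroblast markers 3 were lower in both, and 2 were higher in spontaneous tumours. Xist RNA exceeded a log2 level of 10 in all 6 control lungs, in cobalt tumours 2, 3, 5 and 6 and in spontaneous tumours 4 and 6, and the other 6 tumours carried Y-linked RNA, so each comparison with control lung also sets tumours of both sexes against lungs with Xist RNA. The free-text description of control lung 6 names a spontaneous tumour, against its title, source and group, and its mean r was 0.989 with the other control lungs and 0.935 with the spontaneous tumours.

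Between cobalt tumours and control lung, 4 of the 9 genes were higher (Erbb2, Erbb3, Ereg and Tgfa) and 1 was lower (Egfr) at an adjusted p below 0.05, where 34% of all genes passed in either direction (14.7% higher and 19.3% lower). Between spontaneous tumours and control lung, 4 were higher (Erbb2, Erbb3, Ereg and Btc) and 1 was lower (Egfr), where 34.6% of all genes passed (16.4% higher and 18.2% lower). The median log2 difference of the 9 genes was 0.67 in cobalt tumours and 0.76 in spontaneous tumours, against -0.03 over all genes in each comparison. Both comparisons used the same 6 control lungs. Differences were tested with limma over all 18193 genes with Benjamini-Hochberg adjustment. The 5 genes Egfr, Erbb2, Erbb3, Ereg and Tgfa had no overlap between cobalt tumours and control lung, a property of 18.9% of all genes there. The 3 genes Erbb2, Erbb3 and Ereg had none between spontaneous tumours and control lung, where 21.1% of all genes had none.

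**Figure D1:**
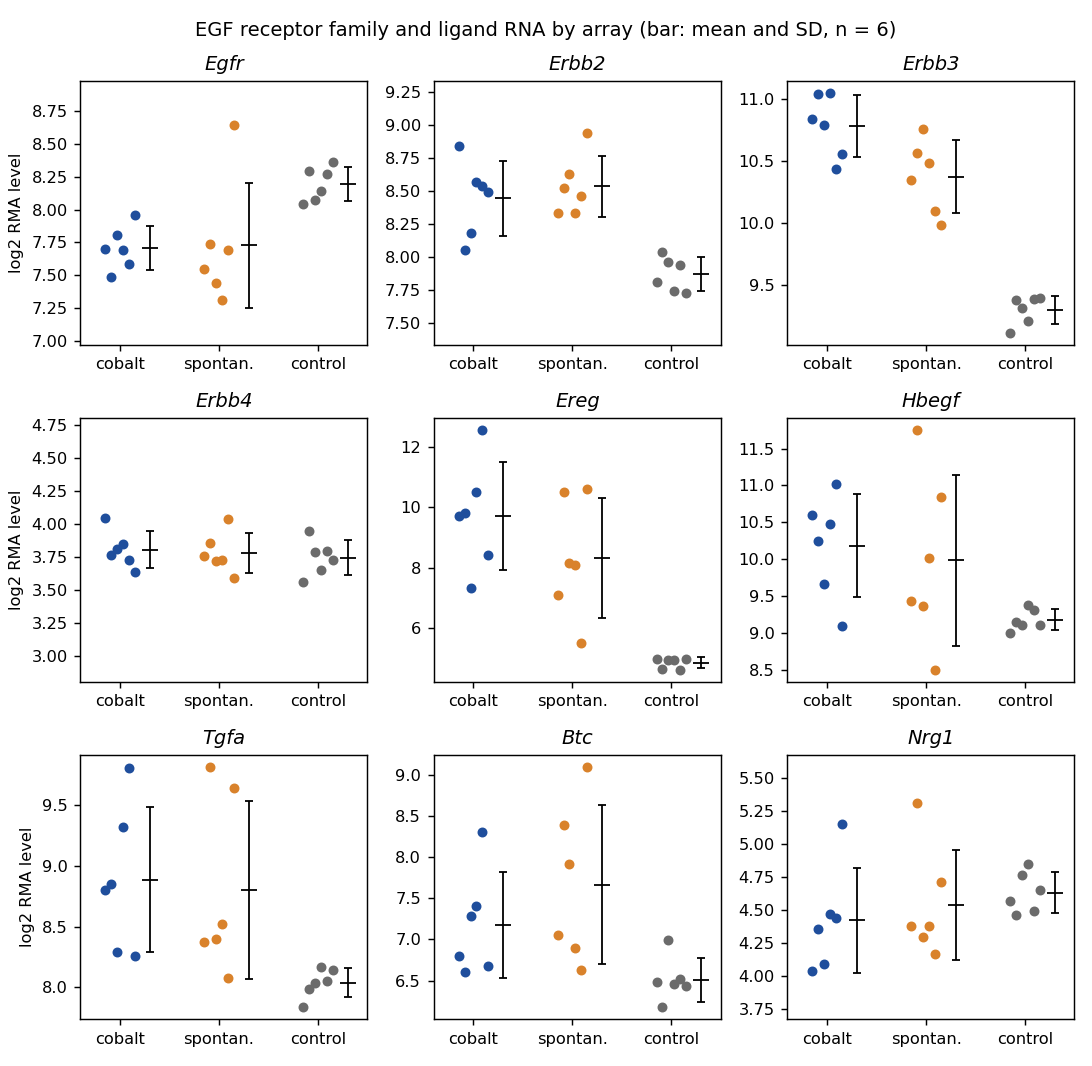
Log2 RMA level of each of the 9 genes (vertical axes, which differ between panels) in 6 cobalt tumours, 6 spontaneous tumours and 6 control lungs, 1 point per array, with the mean and SD beside each group. Every tumour lies above every control lung for Erbb2, Erbb3 and Ereg, and every cobalt tumour lies below them for Egfr.

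Among the receptors, Erbb3 and Erbb2 RNA was higher and Egfr RNA lower in both kinds of tumour than in control lung, and Erbb4 did not pass the threshold. ERBB3 binds neuregulins and, as the partner of other receptors, is the family's main link to PI3K. Its log2 level ran from 10.44 to 11.05 (median 10.81) in cobalt tumours, from 9.99 to 10.76 (median 10.42) in spontaneous tumours and from 9.12 to 9.4 (median 9.35) in control lung. No tumour of either kind reached down to the highest control lung, and 4 of 6 cobalt tumours exceeded every spontaneous tumour. Erbb3 was 2.79-fold higher in cobalt tumours than in control lung (log2 difference 1.48, 95% interval 1.2 to 1.76, adjusted p = 4.29e-07) and 2.11-fold higher in spontaneous tumours than in control lung (1.07, 0.8 to 1.35, adjusted p = 9.17e-06). A second Erbb3 probe set, 1452482_at, gave smaller differences in the same direction, 0.51 in cobalt tumours (adjusted p = 0.0393 over 34945 probe sets) and 0.53 in spontaneous tumours (0.0309).

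Erbb2, the preferred partner receptor of the family, was also higher in every tumour than in every control lung. Its log2 level ran from 8.05 to 8.84 (median 8.52) in cobalt tumours, from 8.33 to 8.94 (median 8.49) in spontaneous tumours and from 7.73 to 8.04 (median 7.87) in control lung. The lowest cobalt tumour, number 2, sat just above the highest control lung. The tumour groups overlapped, with cobalt tumours 2 and 3 below every spontaneous tumour and spontaneous tumour 6 above every cobalt tumour. The difference was 0.58 in cobalt tumours (1.49-fold, 95% interval 0.31 to 0.85, adjusted p = 0.00182) and 0.67 in spontaneous tumours (1.59-fold, 0.4 to 0.93, adjusted p = 0.000585). Erbb2 had 1 probe set.

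Egfr, the receptor for EGF, TGF-alpha, amphiregulin and several other ligands, went the other way. On its brightest probe set, 1460420_a_at, the log2 level ran from 7.49 to 7.96 (median 7.69) in cobalt tumours, from 7.31 to 8.64 (median 7.62) in spontaneous tumours and from 8.04 to 8.36 (median 8.2) in control lung. All 6 cobalt tumours and 5 of 6 spontaneous tumours lay below every control lung, and spontaneous tumour 6 lay above them all. Egfr was 1.4-fold lower in cobalt tumours (log2 difference -0.49, 95% interval -0.84 to -0.14, adjusted p = 0.0295) and 1.38-fold lower in spontaneous tumours (-0.47, -0.82 to -0.12, adjusted p = 0.0371). With Y-linked RNA as a covariate neither call was kept (-0.42 in cobalt tumours, adjusted p = 0.08, and -0.34 in spontaneous tumours, adjusted p = 0.231), nor with only the arrays with Xist RNA (-0.48, adjusted p = 0.109, and -0.22, adjusted p = 0.579). Those arrays keep only spontaneous tumours 4 and 6 of their group, and tumour 6 was the highest of all arrays for Egfr. In spontaneous tumours the call was also lost in the exact permutation test (adjusted p = 0.101) and in a fit of only the 12 arrays compared (0.0706). In cobalt tumours both of these kept it (0.0115 and 0.00112). The mean of all Egfr probe sets gave -0.85 in cobalt tumours (adjusted p = 0.00173) and -0.67 in spontaneous tumours (0.00924). With array weights both calls were kept (0.00136 and 0.000445). Leaving out cobalt tumour 2 or 5 or control lung 2, 5 or 6 ended the call in cobalt tumours (adjusted p = 0.054 to 0.0645), and leaving out spontaneous tumour 1, 2, 3, 4 or 5 or control lung 2, 4, 5 or 6 ended it in spontaneous tumours (0.0519 to 0.0906). Without spontaneous tumours 2 and 6 the Egfr difference in spontaneous tumours was -0.7 (adjusted p = 9.5e-05).

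The 7 Egfr probe sets differed widely in the size of the loss. Tested among 34945 probe sets, 5 of the 7 were lower in cobalt tumours and 4 of the 7 in spontaneous tumours, where 33.1% of all probe sets passed in either direction in each comparison. On probe set 1435888_at the log2 level ran from 4.88 to 7.38 (median 5.5) in cobalt tumours, from 5.06 to 7.86 (median 6.15) in spontaneous tumours and from 7.87 to 8.5 (median 8.13) in control lung. Every tumour lay below every control lung there, but cobalt tumour 6 and spontaneous tumour 6 came close to them while the other 10 tumours stayed at 6.59 or below. The log2 difference on 1435888_at was -2.56 in cobalt tumours (5.88-fold lower, adjusted p = 0.000221) and -2.02 in spontaneous tumours (4.06-fold lower, adjusted p = 0.00168). Probe set 1424932_at gave -1.97 (adjusted p = 0.00743) and -1.48 (0.0377), again with cobalt tumour 6 (log2 level 7.4) and spontaneous tumour 6 (7.66) at control levels of 6.89 to 7.45 or above. Probe set 1451530_at gave -0.82 in cobalt tumours (adjusted p = 0.0131) and -0.44 in spontaneous tumours (0.168), and 1432647_at gave -0.22 (0.0375) and -0.23 (0.028). Probe sets 1454313_at and 1457563_at had log2 differences between -0.06 and 0.1, none past the threshold. Which Egfr transcripts each probe set reports was not tested.

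Markers of other cells were set beside these Egfr levels by array. The mean of the 7 endothelial markers, relative to the control mean, was -1.07 in cobalt tumour 6 and -3.92 in spontaneous tumour 6, and between -4.16 and -2.32 in the other 10 tumours. The mean of the 6 fibroblast markers was -0.3 in cobalt tumour 6 and -1.2 in spontaneous tumour 6, and between -3.17 and -0.88 in the other tumours. For the 7 alveolar type 1 markers it was -0.17 in cobalt tumour 6, -2 in spontaneous tumour 6 and between -2.51 and -1.09 in the others. The control lungs stayed within -0.2 to 0.36 on these 3 lists. The 3 neutrophil markers measured, none past the threshold in either comparison, were highest among the tumours in cobalt tumour 6 (0.14) and spontaneous tumour 6 (-0.39), with -3.41 to -0.79 in the other tumours and -1.45 to 3.69 in control lung. The mean of the 4 mesothelial markers was highest among the tumours in spontaneous tumour 6 (0.37), spontaneous tumour 2 (-0.36) and cobalt tumour 6 (-0.53). It was -1.58 to -0.56 in the others and -1.36 to 0.86 in control lung. Of the 4, 2 were lower in both kinds of tumour, Upk3b and Lrrn4. Msln varied most in spontaneous tumours (SD 3.11, against 0.15 for Upk3b, 0.18 for Wt1 and 0.2 for Lrrn4). The mean there thus largely follows Msln, which was not called. The part of these cells in the Egfr levels was not tested.

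**Figure D2:**
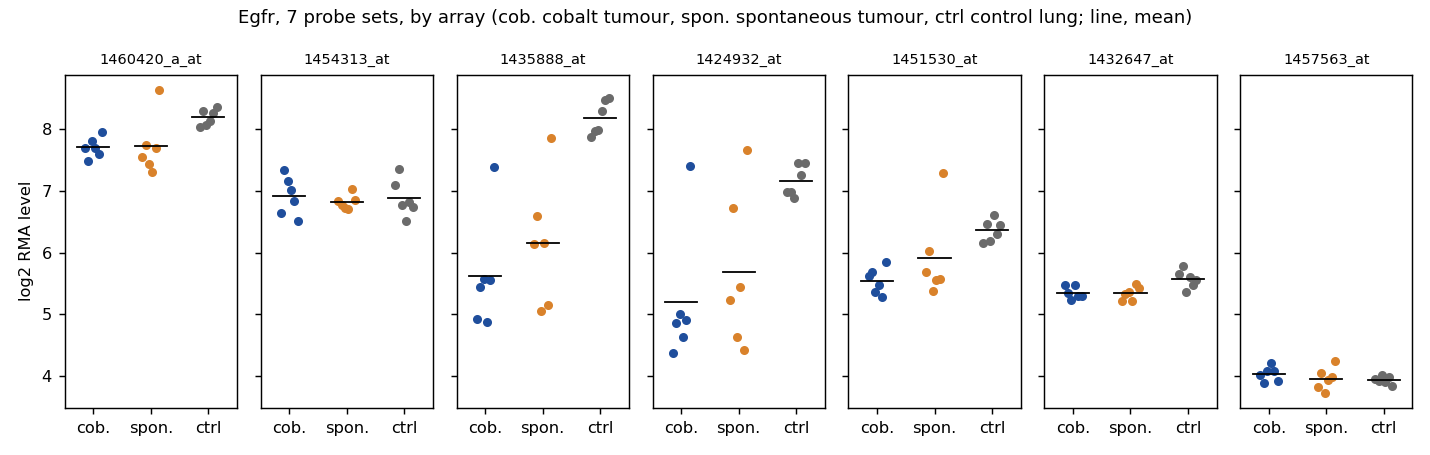
Log2 RMA level (vertical axis, shared) of the 7 Egfr probe sets by array, with cobalt tumours, spontaneous tumours and control lung from left to right in each panel and a line at each group's mean. The loss in tumours is wide on 1435888_at and 1424932_at, where cobalt tumour 6 (7.38 and 7.4) and spontaneous tumour 6 (7.86 and 7.66) sit near the control lungs, and is not seen on 1454313_at or 1457563_at.

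Erbb4, a neuregulin receptor, was near the bottom of the array's range in all groups. Its log2 level ran from 3.64 to 4.05 (median 3.79) in cobalt tumours, from 3.59 to 4.04 (median 3.74) in spontaneous tumours and from 3.56 to 3.95 (median 3.76) in control lung, and the groups overlapped throughout. The log2 difference from control lung was 0.06 in cobalt tumours (95% interval -0.12 to 0.24, adjusted p = 0.632) and 0.04 in spontaneous tumours (-0.15 to 0.22, adjusted p = 0.781). Its mean stood at percentile 0.5 of all genes, so a difference in Erbb4 may not be detectable on this probe set.

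Erbb2 and Egfr lie on the same chromosome, and their promoters are shown because one gene was higher and the other lower in the same tumours. The sequences are from RefSeq on build GRCm38.p6 and cover 250 bases up to the transcription start, 5′ to 3′ on the gene's own strand, with matches to the GC box GGGCGG on either strand in capitals. The 4 motifs named here were searched on both strands. The share of 32851 promoter windows of the same length that held a match was 32.7% for the GC box, 6.75% for the AP-1 motif TGANTCA, 1.55% for the cAMP response motif TGACGTCA and 12.4% for the TATA box TATAAA.
Egfr promoter, chr11:16751953-16752202, plus strand: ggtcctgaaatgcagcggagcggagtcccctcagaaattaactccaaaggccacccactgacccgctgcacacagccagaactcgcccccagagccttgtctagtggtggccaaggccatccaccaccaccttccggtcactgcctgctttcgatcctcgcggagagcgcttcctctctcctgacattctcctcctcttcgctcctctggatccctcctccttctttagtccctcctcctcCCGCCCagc
Erbb2 promoter, chr11:98412234-98412483, plus strand: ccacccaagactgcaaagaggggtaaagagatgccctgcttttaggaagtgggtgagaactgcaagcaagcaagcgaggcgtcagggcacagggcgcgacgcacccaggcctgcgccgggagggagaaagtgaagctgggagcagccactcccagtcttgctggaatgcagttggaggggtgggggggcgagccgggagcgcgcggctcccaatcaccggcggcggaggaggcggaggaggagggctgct
The Egfr window held 1 GC box, starting 9 bases before the transcription start, and 60.8% G or C. The Erbb2 window held none of the 4 motifs and was 66% G or C, against a median of 52.4% over all windows.

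Among the ligands, Ereg stood out in both kinds of tumour. Epiregulin, its product, binds EGFR and ERBB4 and is itself induced by EGF receptor signalling in many epithelia. The log2 level of Ereg in cobalt tumours 1 to 6 was 9.72, 9.8, 7.33, 10.5, 12.55 and 8.41, and in spontaneous tumours 1 to 6 it was 7.09, 10.5, 8.17, 8.1, 5.5 and 10.62. In the control lungs it ran from 4.63 to 5 (median 4.96). Every tumour lay above every control lung, spontaneous tumour 5 only narrowly, and tumours of one kind differed by more than 5 log2 units among themselves while the control lungs were nearly level. Ereg was 28.9-fold higher in cobalt tumours than in control lung (log2 difference 4.85, 95% interval 3.1 to 6.6, adjusted p = 0.000213) and 11-fold higher in spontaneous tumours (3.46, 1.72 to 5.21, adjusted p = 0.00347). Without spontaneous tumours 2 and 6 the difference in spontaneous tumours was 2.35 (adjusted p = 0.0237).

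Tgfa encodes transforming growth factor alpha, a ligand of EGFR alone. Its log2 level on the brightest probe set, 1421943_at, ran from 8.26 to 9.8 (median 8.82) in cobalt tumours, from 8.08 to 9.81 (median 8.46) in spontaneous tumours and from 7.84 to 8.17 (median 8.04) in control lung. All cobalt tumours and 5 of 6 spontaneous tumours lay above the control lungs, from narrowly (8.26 in cobalt tumour 6) to widely (9.81 in spontaneous tumour 2). The difference was 0.85 in cobalt tumours (1.8-fold, 95% interval 0.22 to 1.47, adjusted p = 0.0348) and 0.76 in spontaneous tumours (0.14 to 1.39, adjusted p = 0.0555), the second not past the threshold. The other Tgfa probe sets, 1450421_at and 1421942_s_at, gave log2 differences of 0.01 to 0.15, none past the threshold, so the result rests on 1 of 3 probe sets, and the mean of the 3 gave 0.32 in cobalt tumours (adjusted p = 0.14). It was not called with Y-linked RNA as a covariate (adjusted p = 0.0546) or with only the arrays with Xist RNA (0.0742). In spontaneous tumours it passed without spontaneous tumour 1 or 5 (0.85 and 0.91, adjusted p = 0.0462 and 0.0278) or cobalt tumour 5 or 6 (0.0382 and 0.0491). It also passed with dim genes left out (adjusted p = 0.0447), with only the 12 arrays compared (0.0468) and in the exact permutation test (0.0234), and without spontaneous tumours 2 and 6 it was 0.3 (0.35). The call in cobalt tumours was also lost when cobalt tumour 1, 2, 4 or 5 or control lung 1, 2, 3 or 5 was left out (adjusted p = 0.051 to 0.0882).

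The Tgfa promoter is shown because Tgfa, on its brightest probe set, was the ligand that moved most closely with the others among the tumours. GC boxes are in capitals as above.
Tgfa promoter, chr6:86194972-86195221, plus strand: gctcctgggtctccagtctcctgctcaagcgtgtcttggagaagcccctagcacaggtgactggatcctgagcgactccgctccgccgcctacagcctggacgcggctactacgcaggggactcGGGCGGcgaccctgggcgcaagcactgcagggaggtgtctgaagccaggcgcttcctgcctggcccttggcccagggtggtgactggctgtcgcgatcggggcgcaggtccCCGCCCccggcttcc
The 2 GC boxes of this window started 126 and 15 bases before the transcription start, and 69.2% of its bases were G or C. It held no AP-1, cAMP response or TATA motif in these letters.

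Hbegf and Btc encode heparin-binding EGF-like growth factor and betacellulin, which both bind EGFR and ERBB4. The log2 level of Hbegf ran from 9.09 to 11.02 (median 10.36) in cobalt tumours, from 8.5 to 11.75 (median 9.72) in spontaneous tumours and from 9 to 9.38 (median 9.13) in control lung. Above every control lung were 5 of 6 cobalt tumours and 4 of 6 spontaneous tumours, and spontaneous tumour 5 lay below them. The Hbegf difference was 1 in cobalt tumours (95% interval 0.11 to 1.9, adjusted p = 0.0784) and 0.81 in spontaneous tumours (-0.09 to 1.7, adjusted p = 0.156), and a second probe set gave 0.74 (0.187) and 0.58 (0.306). In cobalt tumours it passed the threshold without cobalt tumour 6 (1.22, adjusted p = 0.0304) and without spontaneous tumour 2 or 5, whose spread enters the fit (0.0284 and 0.0454). It also passed with array weights (adjusted p = 0.00494), with only the 12 arrays compared (0.00954), in the exact permutation test (0.0399) and without spontaneous tumours 2 and 6 (0.0107). In spontaneous tumours it passed without spontaneous tumour 5 (1.1, adjusted p = 0.0388) and with only the arrays with Xist RNA (1.25, adjusted p = 0.037), which keep spontaneous tumours 4 and 6 alone of their group. Without spontaneous tumours 2 and 6 the Hbegf difference in spontaneous tumours was 0.15 (0.758).

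Btc ran from 6.6 to 8.31 (median 7.04) in cobalt tumours, from 6.63 to 9.09 (median 7.48) in spontaneous tumours and from 6.18 to 6.99 (median 6.47) in control lung on the log2 scale. Above every control lung were 3 of 6 cobalt tumours and 4 of 6 spontaneous tumours. Btc was 2.23-fold higher in spontaneous tumours than in control lung (log2 difference 1.15, 95% interval 0.37 to 1.94, adjusted p = 0.0224), and the difference in cobalt tumours was 0.67 (-0.11 to 1.46, adjusted p = 0.18). A second Btc probe set, 1421161_at, gave 1.13 in spontaneous tumours (adjusted p = 0.0337) and 0.62 in cobalt tumours (0.246). The call in spontaneous tumours was lost without spontaneous tumour 2 (1.01, adjusted p = 0.0513) and with only the arrays with Xist RNA (1.48, adjusted p = 0.0604), which keep spontaneous tumours 4 and 6 alone of their group. Without spontaneous tumour 6 it was at the threshold (0.87, adjusted p = 0.05 after rounding), and without spontaneous tumours 2 and 6 together the difference was 0.62 (0.136).

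Nrg1 encodes neuregulin 1, a ligand of ERBB3 and ERBB4. Its probe set was dim, at percentile 9.5 of all genes, with log2 levels of 4.04 to 5.15 (median 4.4) in cobalt tumours, 4.17 to 5.31 (median 4.38) in spontaneous tumours and 4.46 to 4.85 (median 4.61) in control lung. In each tumour group 4 of 6 tumours lay below every control lung and 1 lay above them all, cobalt tumour 6 and spontaneous tumour 2. The log2 difference was -0.21 in cobalt tumours (95% interval -0.61 to 0.19, adjusted p = 0.441) and -0.09 in spontaneous tumours (-0.49 to 0.31, adjusted p = 0.742). Without cobalt tumour 6 and spontaneous tumours 2 and 6 it was -0.35 (0.0107) in cobalt tumours and -0.33 (0.0268) in spontaneous tumours. These had the highest Nrg1 levels of all tumours (5.15, 5.31 and 4.71) and were left out after seeing the data. Leaving them out by itself lowers the tumour means and their spread, so no conclusion is drawn from these p-values.

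**Figure D3:**
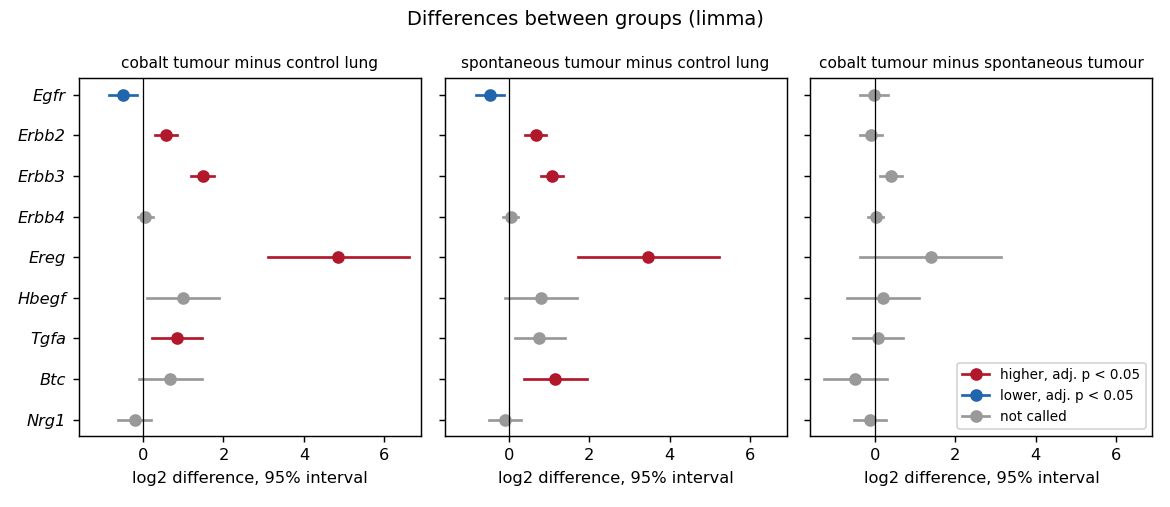
Log2 difference (horizontal axis) with its 95% interval from limma for the 9 genes (vertical axis), for cobalt tumours minus control lung, spontaneous tumours minus control lung and cobalt minus spontaneous tumours from left to right. Red and blue mark adjusted p below 0.05. Ereg has the largest differences, 4.85 and 3.46, and all 9 genes are grey between the tumour groups.

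Between cobalt and spontaneous tumours none of the 9 genes passed the threshold in limma, where 15 of all genes did (0.0824%, with 0.044% higher and 0.0385% lower). At an unadjusted p below 0.05 there was 1 of the 9, Erbb3, and the exact permutation test, adjusted over all genes, called 0 of the 9. Erbb3 was 0.41 log2 units higher in cobalt tumours (95% interval 0.13 to 0.68, unadjusted p = 0.00634, adjusted p = 0.228), with a mean of 10.78 ± 0.25 in cobalt tumours and 10.38 ± 0.29 in spontaneous tumours (SD, n = 6 each). Its second probe set differed by -0.03. For Ereg the difference was 1.39 with an interval of -0.36 to 3.14 (adjusted p = 0.554). It was 0.82 without cobalt tumour 5 and 0.82 without spontaneous tumour 5. With only the arrays with Xist RNA, which keep spontaneous tumours 4 and 6 alone of their group, it was 0.16. Without spontaneous tumours 2 and 6 it was 2.5 (2.76, adjusted p = 0.0734, without cobalt tumour 6 as well). Those spontaneous tumours were the highest of their group in Ereg (10.5 and 10.62), so leaving them out widens the difference by itself. For Btc the difference was -0.48 with an interval of -1.26 to 0.3 (0.675). The intervals were -0.7 to 1.09 for Hbegf, -0.54 to 0.71 for Tgfa, -0.37 to 0.33 for Egfr, -0.36 to 0.18 for Erbb2, -0.52 to 0.29 for Nrg1 and -0.16 to 0.21 for Erbb4. Mean levels therefore ran from cobalt tumours through spontaneous tumours to control lung for Erbb3, Erbb4, Ereg, Hbegf and Tgfa, and from spontaneous tumours through cobalt tumours to control lung for Erbb2 and Btc. For Egfr and Nrg1 control lung was highest and cobalt tumours lowest. Neighbouring tumour groups did not differ past the threshold in any of these orders.

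Among the 12 tumours the levels of Ereg, Hbegf and Tgfa varied together. Control lungs were left out of these relations because the group difference alone would set them. Over 36 pairs of genes, 4 had a correlation past the adjusted threshold in a permutation test of 100000 resamples, all 4 positive and all between ligands. Tgfa was related to Hbegf (Pearson r = 0.92, Spearman rho = 0.95, permutation p = 2e-05, adjusted 0.00036) and to Ereg (r = 0.91, rho = 0.87, p = 2e-05, adjusted 0.00036). Ereg was related to Hbegf (r = 0.86, rho = 0.82, permutation p = 0.00045, adjusted 0.0054). Without the 2 tumours farthest from the median these were 0.91, 0.89 and 0.81, and without spontaneous tumours 2 and 6 they were 0.89, 0.94 and 0.9. The other pair, Tgfa with Btc (r = 0.76, rho = 0.64, permutation p = 0.00492, adjusted 0.0443), fell to r = 0.64 without the 2 farthest tumours and 0.59 without spontaneous tumours 2 and 6, and its rho did not pass (adjusted permutation p = 0.265). The relations of Tgfa rest on its brightest probe set, 1421943_at, and were not tested on its other probe sets.

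Within each kind of tumour the pairs of Tgfa, Ereg and Hbegf had r of 0.85 to 0.97 in the 6 cobalt tumours and 0.94 to 0.95 in the 6 spontaneous tumours. In the spontaneous tumours r was also 0.95 for Hbegf with Nrg1, 0.92 for Tgfa with Nrg1 and 0.91 for Ereg with Btc. The remaining ligand pairs there had r of 0.67 to 0.87. In the cobalt tumours the same named pairs gave -0.54, -0.15 and 0.65. With 6 tumours no pair passed after adjustment over 36 in an exact permutation test. That test has 720 permutations, so its smallest possible p does not let a single pair pass, whatever its r. The exact unadjusted p for Tgfa with Ereg was 0.00417 in cobalt tumours and 0.00556 in spontaneous tumours. No pair with a receptor passed over the 12 tumours, and Erbb3 with Tgfa gave r = -0.03 (permutation p = 0.914). The tumours highest in Tgfa were spontaneous tumour 2, cobalt tumour 5 and spontaneous tumour 6 (log2 9.81, 9.8 and 9.64), and the lowest was spontaneous tumour 5 (8.08), which was also lowest in Ereg and Hbegf. The mean of the 5 epithelial markers relative to control was 2.07 in cobalt tumour 5, 2.44 in spontaneous tumour 2 and 2.42 in spontaneous tumour 6, and 0.75 to 2.12 in the other 9 tumours. The mean of the 5 mast cell and basophil markers was 0.71, 0.57 and -0.13 in the same tumours, so it, like Tgfa, was highest in these 3 among the tumours. It was -0.95 to -0.17 in the other 9 and -0.1 to 0.22 in control lung. Of the 5 markers, 1 was lower in cobalt tumours and 2 in spontaneous tumours, with Kit lower in both (-3.21 and -3.16). Mcpt8, which was not called, varied most (SD 2.96 in cobalt and 2.78 in spontaneous tumours), so the mean largely follows Mcpt8. Cpa3, Fcer1a and Ms4a2 were dim, with mean log2 levels of 4.09 to 4.5 in the tumours. The part of either cell type in the ligand levels was not tested.

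**Figure D4:**
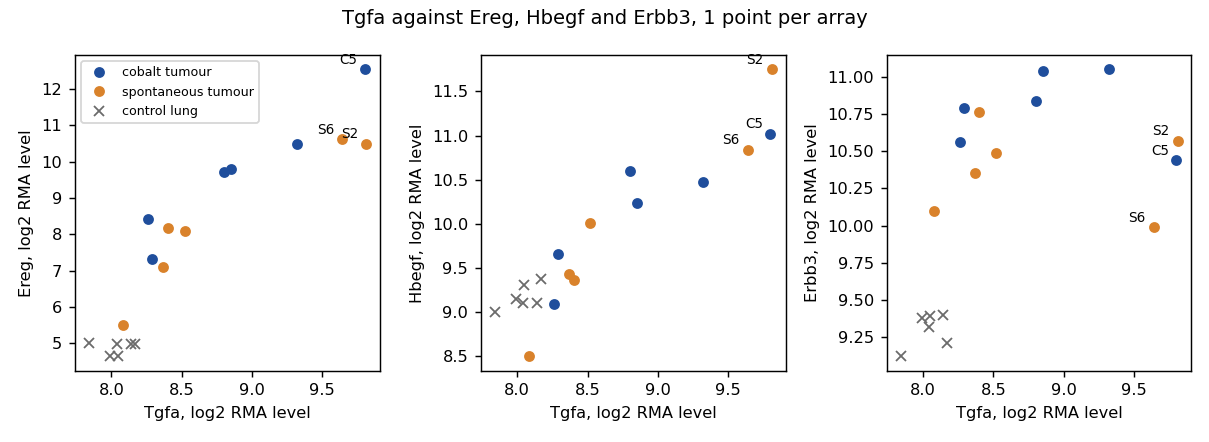
Log2 RMA levels of Ereg, Hbegf and Erbb3 (vertical axes) against Tgfa on its brightest probe set, 1421943_at (horizontal axes), 1 point per array, for cobalt tumours, spontaneous tumours and control lung. C5, S2 and S6 mark cobalt tumour 5 and spontaneous tumours 2 and 6. Ereg and Hbegf rise along with Tgfa across the 12 tumours (r = 0.91 and 0.92), and Erbb3 does not (r = -0.03).

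The genes outside the family whose levels ran most closely with a member over the 12 tumours were found by Pearson's r among 12122 genes, with dim genes left out. These values are a description, since all tumours share 1 processing and the closest of many genes were picked. Rin1, a RAS effector, was closest to Tgfa (r = 0.97) and also near Hbegf (0.92), and Cttn, which encodes the actin regulator cortactin, was near both (0.95 with Tgfa and 0.93 with Hbegf). Tnfrsf12a, the receptor for TWEAK, was next for Tgfa (0.95), and the receptor tyrosine kinase Epha2 lay near Hbegf (0.92). Sertad1 (0.92), AI661453 (0.91) and Inf2 (0.89) were closest to Ereg, and Usp14 (0.95), Higd1a (0.92) and Anxa2 (0.91) to Btc. For the receptors, Map7 (0.91), Mtnr1a (0.9) and Eef2 (0.89) were closest to Erbb3, and Supt6 (0.89), Usp20 (0.87) and Vdac1 (0.84) to Erbb2. For Egfr, Aldh3a1 (0.9), Entpd5 (0.9) and Prtn3 (0.89) were closest, and without the 2 tumours farthest from the median these fell to 0.64, 0.6 and 0.63. The closest genes to the dim probe sets were Zswim4 (0.94), Slc5a2 (0.93) and Igf2os (0.91) for Erbb4 and Nrbp1 (0.97), Sema7a (0.95) and Clec4d (0.95) for Nrg1.

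Of the 5 other EGF family ligands, 1 passed the threshold, Egf itself in spontaneous tumours, where 34% and 34.6% of all genes passed in the cobalt and spontaneous comparisons. Egf was 1.68-fold higher in spontaneous tumours than in control lung (log2 difference 0.75, adjusted p = 0.0416) and its difference in cobalt tumours was 0.27 (0.5). Epgn, which encodes epigen, gave 0.39 in cobalt tumours (adjusted p = 0.0531) and 0.25 in spontaneous tumours (0.204). The neuregulins Nrg2, Nrg3 and Nrg4 gave log2 differences between -0.24 and 0 in both comparisons, none past the threshold. On chromosome 5 Epgn, Ereg, Areg and Btc are consecutive protein-coding genes in the RefSeq annotation, and of the 3 measured Ereg was higher in both kinds of tumour and Btc in spontaneous tumours.

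Of the 8 genes that cut ligands free or control this cut, 3 were higher and 1 was lower in cobalt tumours, and 5 were higher and 1 was lower in spontaneous tumours, where 34% and 34.6% of all genes were called. Adam17, the main sheddase of Tgfa, Areg, Ereg and Hbegf, was 1.16-fold higher in cobalt tumours (log2 difference 0.21, adjusted p = 0.0477) and 1.25-fold higher in spontaneous tumours (0.32, adjusted p = 0.0048). Adam10, which cuts EGF and betacellulin, was higher by 0.49 (adjusted p = 0.0467) and 0.7 (0.0062), and Adam19 by 0.8 (0.043) and 1.33 (0.00188). Timp3, an inhibitor of ADAM17, was 4-fold lower in cobalt tumours (-2, adjusted p = 0.000281) and 3.82-fold lower in spontaneous tumours (-1.93, adjusted p = 0.000391).

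Of 10 genes that restrain the receptors, 3 were higher and 1 was lower in cobalt tumours, and 1 was higher and 2 were lower in spontaneous tumours, near the share of all genes called (34% and 34.6%). Errfi1 (also called Mig6), a feedback inhibitor of the EGFR kinase, had a mean log2 level of 12.62 ± 0.33 in cobalt tumours, 11.91 ± 0.42 in spontaneous tumours and 11.63 ± 0.27 in control lung (SD, n = 6 each). It was 1.98-fold higher in cobalt tumours than in control lung (adjusted p = 0.000574), with a log2 difference of 0.28 in spontaneous tumours (0.274) and of 0.71 between the tumour groups (95% interval 0.31 to 1.11, adjusted p = 0.168). Lrig1, which promotes loss of the receptors, was higher in cobalt tumours (0.77, adjusted p = 0.0099), with 0.09 in spontaneous tumours (0.765). The ubiquitin ligase gene Cblc was higher in both (0.86, adjusted p = 0.00428, and 0.9, adjusted p = 0.00319), and Lrig3 was lower in both (-1.24 and -1.21, adjusted p = 0.000113 and 0.000147). Cblb was lower in spontaneous tumours (-0.89, adjusted p = 0.000793).

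Among 11 adaptor genes, 3 were higher and 2 lower in cobalt tumours, and 4 were higher and 2 lower in spontaneous tumours, where 34% and 34.6% of all genes were called. Grb7, an adaptor that binds ERBB2 and ERBB3, was 2.14-fold higher in cobalt tumours (adjusted p = 9.64e-05) and 2.57-fold higher in spontaneous tumours (1.28e-05). Shc1, the adaptor that links the receptors to RAS, was 2.35-fold and 2.1-fold higher (adjusted p = 0.00012 and 0.000429), and Sos2, an exchange factor for RAS, was 1.91-fold and 1.43-fold higher (2.41e-05 and 0.00399). Ptpn11, the phosphatase SHP2, was lower by 0.63 log2 units in cobalt tumours and 0.58 in spontaneous tumours (adjusted p = 0.00168 and 0.00335). Gab2 was lower in cobalt tumours (-0.93, adjusted p = 0.00895) and Plcg1 in spontaneous tumours (-0.44, adjusted p = 0.0166).

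Of 12 PI3K, AKT, STAT and SRC genes measured, 1 was higher and 3 were lower in each kind of tumour, a share near the 34% and 34.6% of all genes. Src was higher (0.76 in cobalt tumours, adjusted p = 0.0015, and 0.62 in spontaneous tumours, adjusted p = 0.00732). Stat5b (-1.26 and -0.95), Pik3r1 (-0.71 and -0.91) and Pik3cb (-0.66 and -0.56) were lower, all with adjusted p of 0.014 or less.

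Of 14 genes that MAPK signalling induces, 10 were higher in cobalt tumours and 7 in spontaneous tumours, and none was lower, where 14.7% and 16.4% of all genes were higher. Their median log2 difference was 1.17 in cobalt tumours and 0.75 in spontaneous tumours. Dusp4, a phosphatase that switches MAP kinases off, had a mean log2 level of 10.31 ± 0.71 in cobalt tumours, 10.52 ± 0.49 in spontaneous tumours and 7.49 ± 0.28 in control lung (SD, n = 6 each; differences 2.83 and 3.03, adjusted p = 1.49e-06 and 6.77e-07). Spred1, an inhibitor of RAS signalling, was higher by 1.98 and 1.62 (adjusted p = 5.3e-06 and 3.89e-05). Dusp6, the phosphatase of ERK, was higher by 1.24 in cobalt tumours (adjusted p = 3.75e-05), with 0.33 in spontaneous tumours (0.154) and 0.91 between the tumour groups (95% interval 0.54 to 1.28, adjusted p = 0.0552). No gene of the 6 lists around the family passed the threshold between cobalt and spontaneous tumours, where 0.0824% of all genes did.

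**Figure D5:**
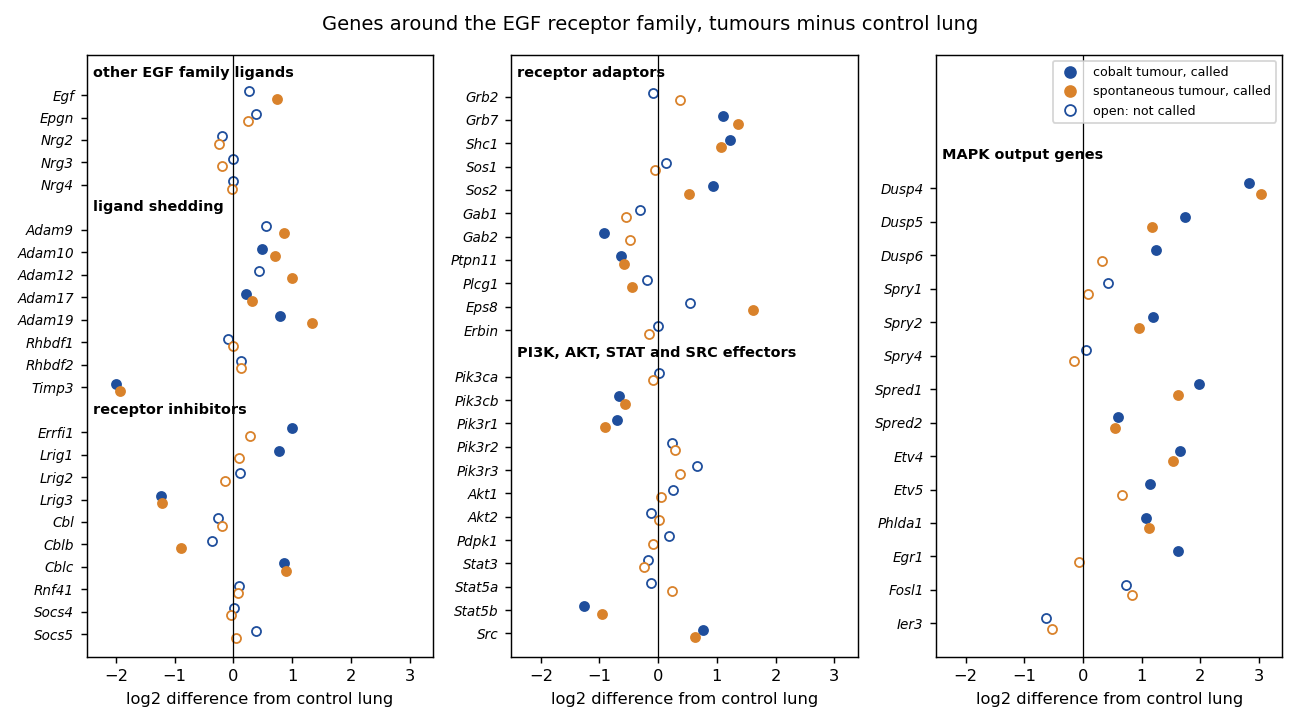
Log2 difference from control lung (horizontal axes) of the genes around the EGF receptor family, grouped by role, in cobalt tumours (blue) and spontaneous tumours (orange), filled where the adjusted p was below 0.05. The MAPK output genes lie mostly to the right, led by Dusp4 at 2.83 and 3.03, while Timp3 lies at -2 and -1.93.

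No member's level passed the threshold in a test of its relation to the mean z-score of the 14 MAPK output genes over the 12 tumours. Over 9 relations r ran from -0.49 for Nrg1 to 0.53 for Erbb3 (adjusted permutation p of 0.227 or more). Ereg gave r = 0.51, rho = 0.38 (permutation p = 0.092, adjusted 0.227) and Hbegf r = 0.48, rho = 0.48 (p = 0.117, adjusted 0.227, permutation test). Without the 2 tumours farthest from the median these were 0.38 and 0.68. Without spontaneous tumours 2 and 6 r was 0.67 for Ereg, 0.83 for Hbegf and 0.7 for Tgfa, which had r = 0.36 over the 12 tumours, and these 3 values were given no test. In the 6 cobalt tumours Hbegf gave r = 0.91 (exact permutation p = 0.0111, not past the threshold after adjustment over 9), and in the 6 spontaneous tumours r = 0.15 (exact permutation p = 0.774).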

How the data were processed

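RNA of 18 mouse lung and lung tumour samples, 6 per group by title, source and group label, was measured with 1 Affymetrix array each, from 100 ng of total RNA per the labels' protocols. The authors deposited log2 values, and the submitters' processing notes name RMA; its version is not given in the sources used here. In its usual form RMA equalises the arrays' distributions, so a common shift of all genes would not show, and it can understate changes of dim probe sets. Detection calls were not used here. Values ran from 3.34 to 15.26 and were used unchanged.

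Of 45101 probe sets, 34945 had 1 symbol in the platform annotation and were kept; 932 had several, 9160 had none and 64 were controls. Symbols matched a RefSeq table of GRCm38.p6 for 34741, and 0 changed. The brightest probe set of a gene stood for it, giving 18193 genes. Group differences were fitted over all 18 arrays in R 4.3.3 with limma 3.58.1 (lmFit, eBayes), two-sided, with Benjamini-Hochberg adjustment over all genes and a threshold of 0.05. The submitters' design compares each tumour group with control lung by another program, ORIOGEN, not run here. The fit was tested on simulated data. Relations over tumours were tested by permutation in Python 3.11.15 with numpy 2.4.6. Promoter windows were found for 6 of the 10 members.

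The members, the lists and the tests were chosen with earlier results of these data known. Named genes outside the family were up to 3 per list and direction by adjusted p, every other EGF family ligand, and the 3 genes most like each member. The results of the 6 lists around the family and of the epithelial, alveolar type 1 and 2, endothelial, fibroblast, heart muscle, mesothelial, neutrophil and mast cell and basophil markers are given in the text; the other 7 marker lists were measured and are not described. Same-numbered arrays of different groups did not deviate together (r = -0.34 to 0.19), so replicate numbers were not used as pairs. Alternatives were cyclic loess, no dim genes, the mean of a gene's probe sets, each probe set alone, trended and robust eBayes, array weights, only the groups compared, the replicate block, Y-linked RNA as a covariate, arrays with Xist above 10, an exact permutation test and each array left out. The arrays with Xist above 10 keep only spontaneous tumours 4 and 6 of their group. Leaving out spontaneous tumours 2 and 6, with and without cobalt tumour 6, was chosen after seeing the data. Spontaneous tumours 2 and 6 were the highest of their group in Egfr, Ereg, Hbegf, Tgfa, Btc and Nrg1, so leaving them out moves those differences by itself.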

Additional observations from a re-analysis of the deposited data

Results flagged for a closer look

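Of 45 groups of 6 arrays tested for a value far from the rest of its group, over the 9 probe sets that stand for the members and the 6 other Egfr probe sets in 3 groups, 4 stood apart, all for Egfr. Chance gives about 1 in 20 such groups, and probe sets of 1 gene share their arrays. Spontaneous tumour 6 was the highest of its group on 1460420_a_at (log2 level 8.64, gap to the next tumour 0.68 of the group's range) and on 1451530_at (7.29, gap 0.66). Cobalt tumour 6 was the highest of its group on 1435888_at (7.38, gap 0.72) and on 1424932_at (7.4, gap 0.79). The limit for 6 arrays is 0.625. Cobalt tumour 6 was also the tumour that correlated most closely with control lung (mean r = 0.971), and its endothelial markers were the least reduced, at -1.07 relative to the control mean; their part in its Egfr level was not tested. Spontaneous tumour 6 had endothelial markers at -3.92.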

How the results depend on the processing

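Erbb2, Erbb3 and Ereg stayed past the threshold with the same direction in both comparisons with control lung under all 12 other settings and in all 18 fits that left out 1 array. The count of members called was 5 in each comparison as reported. Between cobalt tumours and control lung it was 3 with Y-linked RNA as a covariate and 3 with only the arrays with Xist above 10, where 5581 and 5050 of all genes were called against 6183 as reported. It was 8 without cobalt tumour 6 and spontaneous tumours 2 and 6 (7475 genes), and 3 to 6 when 1 array was left out (5573 to 6763 genes), with 3 without cobalt tumour 2 or 5 or control lung 2 or 5. Between spontaneous tumours and control lung it was 3 to 6 when 1 array was left out (5590 to 6517 genes, against 6295 as reported), with 3 without spontaneous tumour 2 (6156 genes). Between the tumour groups it was 0 in every setting run, while the count of all genes called, 15 as reported, ran from 0 to 354, the highest without cobalt tumour 6 and spontaneous tumours 2 and 6. With the replicate block 4 members were called in cobalt tumours, where Tgfa reached an adjusted p of 0.0608 against 0.0348 as reported, 5 in spontaneous tumours and 0 between the tumour groups; the replicate numbers of the titles did not pair the arrays, and the block changed no other call of a member.

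Of the differences that turned sign, only that of Egfr from control lung had passed the threshold as reported, and none passed it with the sign turned. Erbb4 was -0.01 in cobalt tumours with the Xist arrays, and in spontaneous tumours -0.09 with those arrays, -0.08 with the Y-linked covariate and -0.02 to 0.08 when 1 array was left out. Egfr was 0.04 on 1454313_at and 0.1 on 1457563_at in cobalt tumours and 0.02 on 1457563_at in spontaneous tumours. Between the tumour groups Egfr was 0.01 with cyclic loess, 0.09 with array weights, 0.21 without spontaneous tumours 2 and 6, 0.16 without these and cobalt tumour 6, 0.1, 0.01 and 0.08 on 1454313_at, 1432647_at and 1457563_at, and -0.1 to 0.16 when 1 array was left out. Tgfa was -0.01 with the mean of its probe sets, -0.28 with the Xist arrays, -0.05 and -0.07 on its other probe sets and -0.1 to 0.28 when 1 array was left out. Hbegf was -0.42 with the Xist arrays and -0.1 to 0.55 when 1 array was left out, Erbb4 -0.02 to 0.08 and Nrg1 -0.26 to 0.04. Without spontaneous tumours 2 and 6 Erbb2 was 0.01, Erbb4 0, Btc 0.06 and Nrg1 0.12, Btc was 0.16 without cobalt tumour 6 as well, and the second Erbb3 probe set gave -0.03. Of the relations between members, 0 were called within the 6 cobalt tumours and 0 within the 6 spontaneous tumours. Fewer arrays entered there, and a single pair could not have passed. The cause of the other changes was not tested. Signal over background is unknown here, which limits Erbb4 and Nrg1 most among the members, and also the dim ligands Egf, Epgn, Nrg3 and Nrg4.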
